A study of Rattus norvegicus with 48 samples.

Results

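The genes described here have symbols that begin with Slc and a digit, the naming series of the solute carriers, which are membrane transporters. One of them, Slc9a3r2, encodes a scaffold protein and not a carrier. They were selected on measured values. The study's lists of differentially expressed genes (DEGs) between immobilized and control muscle are the only records used here that pair Ensembl identifiers with symbols, and every Slc gene named there was taken except Slc30a2. This gave 24 genes of the 31998 in the count table, beside 1125 other genes with a symbol. RNA was sequenced from plantaris and soleus muscle of 24 female rats aged 14 months, which came from generation 19 of 2 lines bred for a low (LRT) or high (HRT) gain in running capacity after treadmill training. In each line 6 rats had one hindlimb in a fibreglass cast for 3 d (HI) and 6 had no cast (CTRL), which gave 48 libraries in 8 groups of 6. According to the study's methods, the rats had been treadmill trained early in life, the cast held the foot in plantar flexion, CTRL rats were separate animals rather than opposite limbs, and all muscles were removed under anaesthesia. Puromycin was injected shortly before the muscles were taken, to measure protein synthesis. Breeders were chosen among genetically heterogeneous rats and rotated to slow inbreeding.

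Solute carriers move amino acids, sugars, lactate, nucleotides, ions and metals across the plasma membrane and the membranes of organelles. In muscle the best known members are Slc2a4 (GLUT4), the glucose carrier that insulin and contraction bring to the surface, and Slc16a3 (MCT4), which exports lactate from fast glycolytic fibres. The plantaris is a mostly fast muscle and the soleus a mostly slow, postural one. The muscle labels were checked against marker genes in CTRL libraries: all 6 fast fibre markers tested were higher in plantaris, parvalbumin (Pvalb) by 10.41 on the log2 scale, and 4 of 5 slow fibre markers were higher in soleus.

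Levels are in CPM, counts scaled to a common library size after TMM scaling, given as mean ± SD of 6 libraries. They compare libraries and not genes, because no transcript lengths were applied here and how the deposited counts were scaled for length is not given in full. Estimated counts summed to between 26.8 and 36.4 M (mega) per library with a median of 30.4 M, and RNA integrity numbers lay between 7.8 and 8.6. The 48 libraries came from 24 rats and were fitted as independent. Several libraries stood apart. HRT HI replicate 5 had red blood cell genes far above the other libraries in both muscles, and soleus HRT CTRL replicate 1 was far from its group for several members. In plantaris, LRT HI replicates 1 and 3 lay furthest from CTRL over the 24 genes, with median absolute log2 distances from the CTRL mean of 1.72 and 1.47 against 0.43 to 0.66 in the other 4 LRT HI libraries. The genes called in LRT plantaris are given with and without each of those 2 libraries. The tissue samples hold blood, connective tissue and immune cells as well as fibres, and fewer cells of a type cannot be told apart from less RNA per cell.

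All 24 genes passed the filter on low counts. A gene counted as called between HI and CTRL where its log2 fold change exceeded 1 in either direction with adjusted p below 0.05 (edgeR quasi-likelihood test with Benjamini-Hochberg adjustment over 16960 genes). These contrasts chose the genes, so the counts and fold changes between HI and CTRL are a description and support nothing. In LRT plantaris 12 of 24 genes were called, 7 higher and 5 lower in HI, where 2.75% of all tested genes were called higher and 2.44% lower. In HRT plantaris 1 was higher and 2 were lower, against 0.908% and 0.991% of all genes. In LRT soleus 4 were higher and 1 was lower, against 1.42% and 0.991%, and in HRT soleus 3 were higher and 6 lower, against 1.46% and 1.47%. The share of all tested genes called in several comparisons was not counted, so nothing is read from such counts for the 24 genes. Of the 24 genes 1 was called in all 4 comparisons (Slc9a2), 2 in 3 (Slc41a3 and Slc6a9), 1 in 2 (Slc43a1), 17 in 1 comparison and 3 in none (Slc2a4, Slc25a25 and Slc25a27). These 3 depended on the setting in LRT plantaris: of the 10 alternatives other than leaving out 1 library, Slc25a25 was called in 7 (limma-voom and DESeq2 among them), Slc2a4 in 3 (limma-voom, the replicate block and each muscle fitted alone) and Slc25a27 in 2 (limma-voom and scaling by library totals). With 1 library left out in turn they were called in 29, 8 and 1 of 48. Among genes past the adjusted p, those just inside and just outside the fold threshold were Slc16a10 at -1.075 and Slc25a25 at -0.996 in LRT plantaris, Slc9a2 at -1.407 and Slc9a3r2 at -0.983 in HRT plantaris, Slc9a2 at -1.024 and Slc43a2 at 0.997 in LRT soleus, and Slc9a3r2 at -1.004 and Slc25a28 at 0.969 in HRT soleus. The 4 comparisons depended on single libraries: 12 calls in LRT plantaris became 7 without HI replicate 1, 5 in LRT soleus became 2 without HI replicate 3, 9 in HRT soleus became 6 without CTRL replicate 1, and 3 in HRT plantaris became Slc9a2 alone without HI replicate 1 or 2 or CTRL replicate 1, 2, 4, 5 or 6, and 5 without HI replicate 6. In LRT plantaris, log2 fold changes without HI replicate 1 and without HI replicate 3 were -2.00 and -1.97 for Slc9a2, -2.12 and -2.11 for Slc41a3, and 2.81 and 2.36 for Slc6a9. They were 1.11 and 1.04 for Slc43a2, 1.15 and 1.28 for Slc12a4, 1.85 and 1.75 for Slc22a4, and -1.07 and -1.06 for Slc37a4. All 7 of these genes kept their call without either library. The remaining 5 lost it without replicate 1, at -1.41 (-1.41 without replicate 3) for Slc16a3, -0.91 (-0.90) for Slc16a10, 0.78 (1.06) for Slc25a45, 0.92 (1.02) for Slc31a2 and 0.90 (1.14) for Slc7a5, and Slc16a3 and Slc16a10 also lost it without replicate 3. Of the 1125 other genes with a symbol, chosen from the same lists, 628 (55.8%), 224 (19.9%), 265 (23.6%) and 317 (28.2%) were called in LRT plantaris, HRT plantaris, LRT soleus and HRT soleus.

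**Figure D1:**
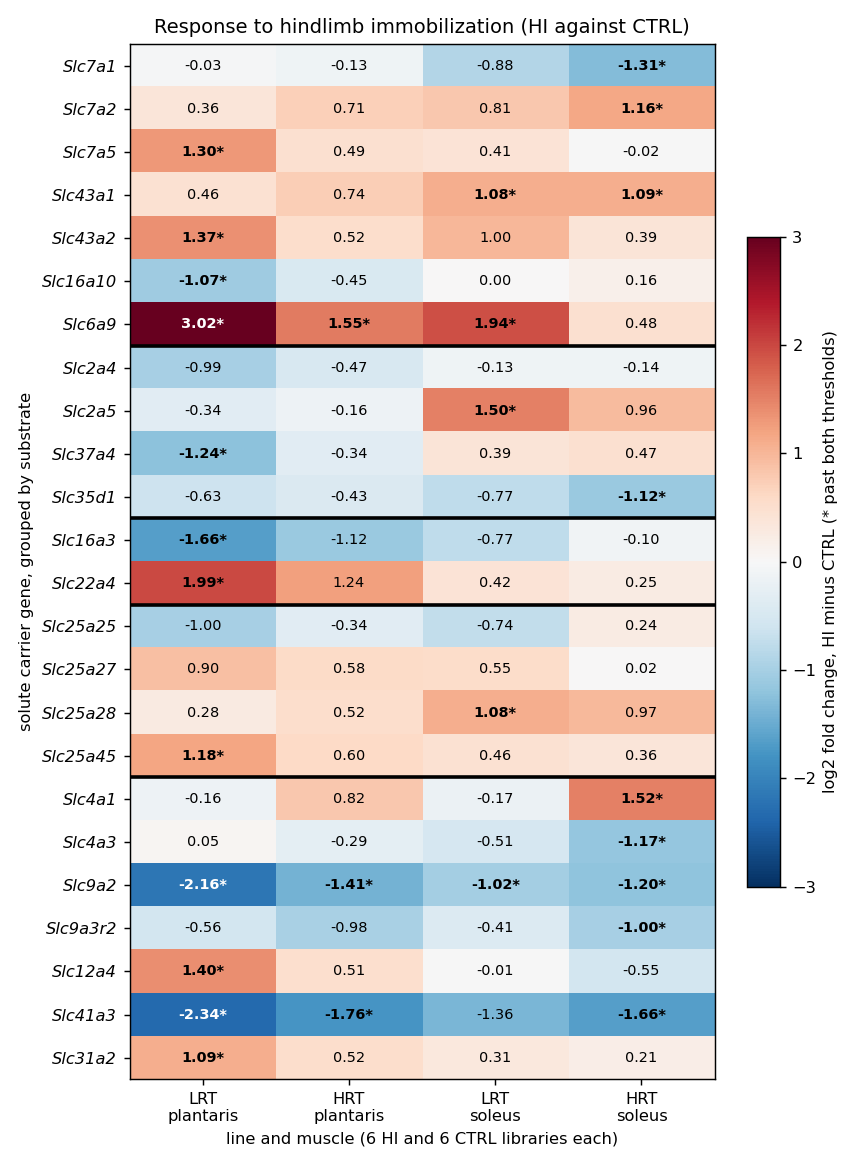
Each cell gives the log2 fold change of a solute carrier gene (row) in HI against CTRL for a line and muscle (column, 6 HI and 6 CTRL libraries each), with an asterisk where it passed both thresholds; blue is lower and red higher in HI, and calls were made on unrounded values. The Slc9a2 row is past both thresholds in all 4 columns, from -2.16 to -1.02, and LRT plantaris holds 12 asterisks.

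The ion, pH and metal group of 7 genes held Slc9a2 and Slc41a3, which were lower in HI in most comparisons. Slc9a2 encodes the sodium/proton exchanger NHE2, which extrudes acid in exchange for sodium. In LRT plantaris its lowest, median and highest values were 12.9, 14.7 and 18.1 CPM in CTRL and 1.11, 2.95 and 7.39 CPM in HI. In HRT plantaris they were 14.3, 18.7 and 22.9 CPM in CTRL and 3.29, 7.46 and 11.6 CPM in HI. The groups did not overlap in either line, and HI replicates 1 and 3 of LRT (1.55 and 1.11 CPM) and 1 and 4 of HRT (3.39 and 3.29 CPM) were the lowest. In LRT soleus the lowest, median and highest values of Slc9a2 were 13.9, 15.8 and 16.5 CPM in CTRL and 4.14, 6.26 and 15.2 CPM in HI. In HRT soleus they were 15.5, 18.7 and 22.4 CPM and 5.53, 8.62 and 10.6 CPM. The soleus groups overlapped in LRT through HI replicate 6 alone (15.2 CPM) and did not overlap in HRT. Log2 fold changes of HI against CTRL with their standard errors were -2.16 ± 0.31 and -1.41 ± 0.30 in LRT and HRT plantaris, and -1.02 ± 0.29 and -1.20 ± 0.30 in LRT and HRT soleus. The LRT soleus call was lost without HI replicate 2, 3 or 5 or CTRL replicate 5 or 6 of its own groups, without any of 3 HRT plantaris libraries, and with scaling by library totals.

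Slc41a3 belongs to a family of magnesium transporters. In LRT plantaris its lowest, median and highest values were 49.2, 52.6 and 58.3 CPM in CTRL and 1.78, 8.71 and 24.1 CPM in HI. In HRT plantaris they were 46.0, 59.9 and 69.0 CPM in CTRL and 6.74, 13.8 and 48.3 CPM in HI. The LRT groups were apart, whereas HRT HI replicate 3, at 48.3 CPM, lay within the CTRL range. In LRT soleus the lowest, median and highest values of Slc41a3 were 25.7, 35.3 and 40.9 CPM in CTRL and 2.10, 12.7 and 30.2 CPM in HI. In HRT soleus they were 25.6, 40.3 and 59.9 CPM and 2.41, 9.37 and 25.9 CPM. Both soleus comparisons overlapped by their highest HI libraries, and HI replicates 1, 3 and 4 of LRT and 1, 2 and 4 of HRT were far below CTRL while the others lay closer to it. Log2 fold changes were -2.34 ± 0.57 in LRT plantaris, -1.76 ± 0.56 in HRT plantaris and -1.66 ± 0.55 in HRT soleus. LRT soleus, at -1.36 ± 0.55, was not called, but was with limma-voom, with the replicate block and without HI replicate 6. The HRT soleus call was lost without HI replicate 1, 2 or 4 or CTRL replicate 4 or 6, with log2 fold changes of -1.59 to -1.44, and the HRT plantaris call without any of 8 libraries of its groups, with -1.77 to -1.59. Fitting each muscle alone or keeping genes with any count also ended the HRT soleus call.

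Slc6a9 encodes the glycine transporter GLYT1 and had the largest upward log2 fold change of the 24 genes. In LRT plantaris its lowest, median and highest values were 0.33, 0.67 and 0.97 CPM in CTRL and 0.72, 3.34 and 15.1 CPM in HI. In HRT plantaris they were 0.94, 1.03 and 1.32 CPM in CTRL and 1.55, 2.66 and 5.72 CPM in HI. The HRT groups were apart by a narrow margin, and the LRT groups overlapped because HI replicate 5 (0.72 CPM) stayed among the CTRL values while replicates 1 and 3 reached 8.53 and 15.1 CPM. In LRT soleus the lowest, median and highest values of Slc6a9 were 0.26, 0.55 and 0.90 CPM in CTRL and 0.62, 1.38 and 4.36 CPM in HI. In HRT soleus they were 0.88, 0.96 and 2.90 CPM and 1.15, 1.46 and 2.94 CPM. Both soleus comparisons overlapped, and CTRL replicate 1 of HRT was the highest of its group. Log2 fold changes were 3.02 ± 0.53 in LRT plantaris, 1.55 ± 0.52 in HRT plantaris and 1.94 ± 0.55 in LRT soleus. The LRT soleus call was lost without HI replicate 1 or 3, with log2 fold changes of 1.60 and 1.65, and the HRT plantaris call without any of 9 libraries of its groups, with 1.31 to 1.61. limma-voom ended both calls, 3 soleus libraries left out in turn also ended the HRT plantaris call, and so did keeping genes with any count and fitting each muscle alone. In plantaris LRT HI the same 2 libraries, replicates 1 and 3, held the lowest Slc9a2 and Slc41a3 values and the highest Slc6a9 values, and in plantaris HRT HI replicate 4 did so.

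**Figure D2:**
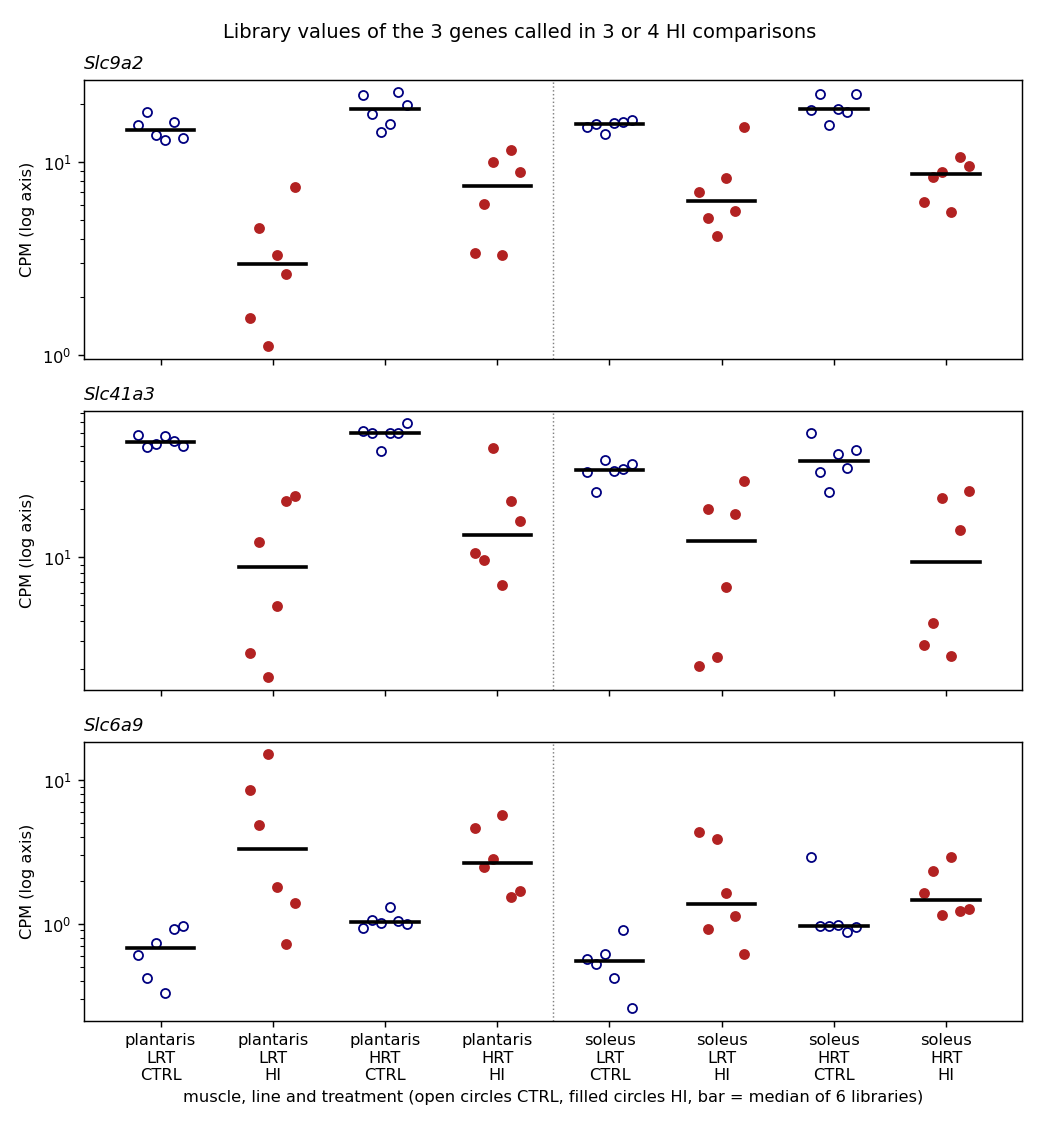
Library values of Slc9a2, Slc41a3 and Slc6a9 in CPM on log axes for the 8 groups of muscle, line and treatment; open circles are CTRL, filled circles HI and bars the median of 6 libraries. Slc9a2 HI values in plantaris lie below all CTRL values of their line, and Slc6a9 in LRT plantaris HI spreads from 0.72 to 15.1 CPM.

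The upstream windows of these 3 genes, the members called in most HI comparisons, are shown as reference; their relation to the levels was not tested. Each is the 250 bases before the RefSeq start site in build GRCr8, which is a newer build than the Rnor_6.0 annotation the counts rest on, written 5′ to 3′ on the strand of the gene with E-box matches (CANNTG, the core that myogenic and other helix-loop-helix factors bind) in capitals. The reference lists 2 start sites for Slc9a2, of which the upstream one is printed (chr9:50427362-50427611, plus strand). Slc41a3 lies at chr4:124684717-124684966, plus strand and Slc6a9 at chr5:136659826-136660075, plus strand.
Slc9a2: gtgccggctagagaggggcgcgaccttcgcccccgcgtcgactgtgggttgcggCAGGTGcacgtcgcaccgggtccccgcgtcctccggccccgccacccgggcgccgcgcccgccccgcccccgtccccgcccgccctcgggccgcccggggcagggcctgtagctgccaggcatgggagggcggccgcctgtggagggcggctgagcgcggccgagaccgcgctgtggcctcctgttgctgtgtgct
Slc41a3: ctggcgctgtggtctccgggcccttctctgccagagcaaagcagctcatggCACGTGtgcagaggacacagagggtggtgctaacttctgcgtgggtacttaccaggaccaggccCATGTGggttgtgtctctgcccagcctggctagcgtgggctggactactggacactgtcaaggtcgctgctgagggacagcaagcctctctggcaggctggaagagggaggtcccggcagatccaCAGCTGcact
Slc6a9: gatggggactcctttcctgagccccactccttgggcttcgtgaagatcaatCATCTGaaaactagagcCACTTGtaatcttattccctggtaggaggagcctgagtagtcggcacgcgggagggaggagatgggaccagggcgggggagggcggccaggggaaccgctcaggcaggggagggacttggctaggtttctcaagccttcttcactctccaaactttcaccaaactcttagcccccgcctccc
The Slc9a2 window had 79.6% G and C, 1 E-box and 7 GC boxes (GGGCGG), the Slc41a3 window 62.0% G and C and 3 E-boxes, and the Slc6a9 window 58.4% G and C, 2 E-boxes and 2 GC boxes, against a median of 51.2% G and C over all 33469 windows. Matches were counted on both strands, with overlaps allowed. A match is a description of letters and not a site of binding.

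Windows were found for 21 of the 24 genes, 20 by symbol and Slc9a3r2 by its synonym; Slc2a4, Slc4a1 and Slc7a2 had no entry. An E-box stood in the windows of 12 of the 21 genes, against 65.5% of all windows. A GC box stood in 15 of 21, against 30.5% of all windows. The hypoxia element core (ACGTG) stood in 5 of 21, against 16.6%, the M-CAT element (CATTCC) in 3 of 21, against 12.1%, and the cyclic AMP response element (TGACGTCA) in 1 of 21, against 1.6%. The percentages count windows, and the 21 genes had 23 windows. Counted by window, the E-box stood in 13 of 23, the GC box in 15 and the hypoxia element core in 6. M-CAT stood in 3 windows and the cyclic AMP response element in 1. The hypoxia element core overlaps the E-box where CACGTG occurs.

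The other 5 genes of the ion, pH and metal group each passed the thresholds in 1 comparison. Slc12a4 encodes KCC1, a potassium/chloride cotransporter that regulates cell volume. In LRT plantaris it was 24.7 ± 1.55 CPM in CTRL and 65.2 ± 32.2 CPM in HI, with a log2 fold change of 1.40 ± 0.21, and no HI library overlapped CTRL. In HRT soleus the HI mean was below CTRL, at 61.1 ± 9.30 CPM in HRT soleus CTRL and 41.7 ± 11.3 CPM in HI, and this was not called. Slc31a2, the copper transporter CTR2, was 9.18 ± 1.07 CPM in LRT plantaris CTRL and 19.4 ± 6.44 CPM in HI (log2 fold change 1.09 ± 0.17), again with no overlap. HI replicate 1 held the highest level of both genes, at 114 and 29.6 CPM, and without it the log2 fold change of Slc31a2 was 0.92, under the threshold.

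Slc4a3 (AE3) and Slc4a1 (band 3) are chloride/bicarbonate exchangers, the first of excitable tissue and the second of red blood cells. Slc4a3 was 115 ± 47.8 CPM in HRT soleus CTRL and 47.8 ± 19.4 CPM in HI, with a log2 fold change of -1.17 ± 0.22. CTRL replicate 1, at 207 CPM, was the highest library, and without it the log2 fold change was -0.98, just short of the threshold. In LRT soleus the levels were 73.5 ± 19.8 CPM and 49.9 ± 10.4 CPM, and in plantaris all 4 group means lay between 5.10 to 6.40 CPM. Slc9a3r2 encodes NHERF2, a scaffold protein that binds sodium/proton exchangers and is not itself a carrier. It was 19.0 ± 4.46 CPM in HRT soleus CTRL and 8.93 ± 2.33 CPM in HI, and 20.4 ± 3.40 CPM and 10.7 ± 3.20 CPM in HRT plantaris, without overlap in either muscle. The soleus log2 fold change was called at -1.004 and ran from -1.13 to -0.88 over 58 alternatives. The call was lost in 30 of the 48 fits with 1 library left out, 6 of them of its own groups, and in 4 of the 10 other alternatives. In HRT plantaris Slc9a3r2 was called with limma-voom and with the replicate block.

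Slc4a1 was called in HRT soleus, where it was 4.84 ± 0.44 CPM in CTRL and 16.0 ± 19.3 CPM in HI (log2 fold change 1.52 ± 0.38). HI replicate 5 reached 55.1 CPM while the other 5 HI libraries lay between 5.65 and 11.6 CPM, and all 6 were above the CTRL range of 4.28 to 5.46 CPM. Without that library the log2 fold change was 0.76, and without it and the other libraries named as standing apart in HRT it was 0.73. Fitting each muscle alone also ended the call. The 5 red blood cell genes used as markers (Hba-a1, Hba-a2, Hba-a3, Hbb and the heme synthesis gene Alas2) were taken from the DEG lists. Their calls are therefore a description, beside 28.2% of the other genes with a symbol called in HRT soleus. All 5 were called higher in HRT soleus HI. Their summed level ran from 158.7 to 607.0 CPM with a median of 292.3 CPM in HRT soleus CTRL, and from 218.6 to 10543.3 CPM with a median of 1147.6 CPM in HI. HI replicate 5 held that maximum, and in plantaris the library with the same number held the highest red cell sum (3062.7 CPM) and the highest Slc4a1 level (15.3 CPM, against 3.79 to 4.23 CPM in the other 5). No red cell marker was at 0 throughout a group. The part of red cells in the Slc4a1 result was not tested. In LRT, where 0 of 5 red cell markers were called in either muscle, Slc4a1 was 5.49 ± 1.05 CPM in soleus CTRL and 5.14 ± 1.51 CPM in soleus HI.

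**Figure D3:**
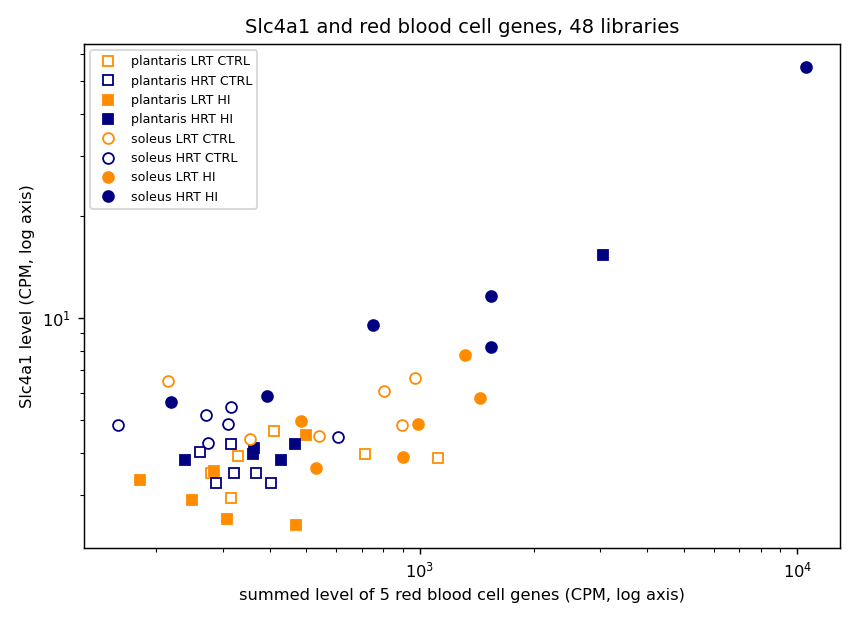
Each point is 1 of the 48 libraries, with the summed level of 5 red blood cell genes on the x axis and Slc4a1 on the y axis, both in CPM on log axes; squares are plantaris, circles soleus, open symbols CTRL and filled symbols HI. HRT HI replicate 5 lies apart in both muscles, at 10543.3 and 55.1 CPM in soleus and at 3062.7 and 15.3 CPM in plantaris.

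Among the 7 amino acid transporters, 8 of 10 calls over the 4 comparisons were higher in HI, against 52.6% of the 2107 calls of all tested genes, and nothing is read from this since these contrasts chose the genes. Slc43a1 and Slc43a2 (LAT3 and LAT4) carry branched-chain and other neutral amino acids by facilitated diffusion. Slc43a1 was called in both soleus comparisons, at 8.13 ± 1.50 CPM in LRT CTRL and 17.4 ± 5.92 CPM in HI, and 6.02 ± 0.78 CPM in HRT CTRL and 13.1 ± 3.24 CPM in HI. The log2 fold changes were 1.08 ± 0.22 and 1.09 ± 0.23, and the groups were apart in HRT but not in LRT, where the call was lost without HI replicate 3. In plantaris its HI means were also above CTRL, at 38.3 ± 17.3 against 28.1 ± 6.51 CPM in LRT and 40.6 ± 7.63 against 24.5 ± 3.86 CPM in HRT, without a call. Slc43a2 was called in LRT plantaris, from 53.6 ± 5.11 CPM in CTRL to 138 ± 93.7 CPM in HI (log2 fold change 1.37 ± 0.31). Its HI mean was carried by replicates 1 and 3 (244 and 271 CPM), while the other 4 HI libraries lay between 53.0 and 90.8 CPM. In HRT plantaris 2 HI libraries, replicates 1 and 4, stood at 132 and 112 CPM and the other 4 at 40.9 to 48.7 CPM, inside the CTRL range of 41.9 to 62.4 CPM apart from the lowest. In LRT soleus Slc43a2 was 67.9 ± 7.37 CPM in CTRL and 135 ± 69.0 CPM in HI, just under the fold threshold at 0.997, and it was called in 39 of the 48 fits with 1 library left out, with library totals and with either other filter on low counts. HRT soleus had 73.5 ± 10.9 and 96.2 ± 31.1 CPM.

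Slc7a5 (LAT1) is the large neutral amino acid exchanger that supplies leucine to cells. It was 0.66 ± 0.20 CPM in LRT plantaris CTRL and 1.60 ± 1.10 CPM in HI (log2 fold change 1.30 ± 0.31), and without HI replicate 1 the value was 0.90. In the other 3 comparisons the CTRL means were 0.80 to 1.44 CPM and the HI means 1.08 to 1.46 CPM. Slc16a10 (TAT1), which carries aromatic amino acids, was the only amino acid gene called lower in plantaris: 21.0 ± 3.39 CPM in LRT CTRL and 9.87 ± 5.05 CPM in HI, without overlap (log2 fold change -1.07 ± 0.25). That call was lost without HI replicate 1 or 3 and with library totals. HRT plantaris had 19.8 ± 1.71 CPM in CTRL and 14.4 ± 3.90 CPM in HI, and the soleus means lay between 8.35 to 11.2 CPM.

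Slc7a1 and Slc7a2 (CAT1 and CAT2) both carry arginine and other cationic amino acids, and in HRT soleus they were called in opposite directions. Slc7a1 was 6.80 ± 4.26 CPM in CTRL and 2.66 ± 0.60 CPM in HI (log2 fold change -1.31 ± 0.29). Without CTRL replicate 1, at 15.3 CPM, the log2 fold change was -0.95. Slc7a2 was 6.81 ± 1.77 CPM in CTRL and 15.4 ± 5.70 CPM in HI (log2 fold change 1.16 ± 0.28, and 0.99 without HI replicate 4). LRT soleus had the same order of means without a call, at 3.76 ± 1.88 and 2.03 ± 0.70 CPM for Slc7a1 and 9.11 ± 2.31 and 16.1 ± 5.30 CPM for Slc7a2. In plantaris the Slc7a1 means stayed between 1.66 to 1.78 CPM in all 4 groups. Slc7a2 in plantaris was 19.4 ± 5.12 and 24.8 ± 10.6 CPM in LRT CTRL and HI, and 17.5 ± 5.32 and 28.6 ± 8.77 CPM in HRT.

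Of the 4 sugar transporters, the insulin-sensitive glucose carrier Slc2a4 was not called. It was 570.2 ± 54.6 CPM in LRT plantaris CTRL and 289 ± 144 CPM in HI, with no overlap between the ranges of 479.9 to 635 and 114 to 425 CPM, and its log2 fold change of -0.99 ± 0.24 was short of the threshold, which it passed with limma-voom, with the replicate block and with each muscle fitted alone. HRT plantaris had 516 ± 78.3 CPM and 373 ± 146 CPM, with overlap, and the soleus means in CTRL and HI were 536 ± 40.9 and 489 ± 101 CPM in LRT and 414 ± 48.9 and 375 ± 60.1 CPM in HRT. Slc37a4 is the glucose-6-phosphate translocase of the endoplasmic reticulum. It was 139 ± 25.2 CPM in LRT plantaris CTRL and 58.7 ± 28.1 CPM in HI (log2 fold change -1.24 ± 0.23), without overlap. In soleus the HI means were above CTRL instead, at 54.7 ± 10.3 against 41.8 ± 9.33 CPM in LRT and 44.9 ± 5.10 against 32.5 ± 3.02 CPM in HRT, neither called, and the HRT soleus groups did not overlap.

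Slc2a5 (GLUT5) carries fructose. It was called higher in LRT soleus HI, at 1.58 ± 0.36 CPM in CTRL and 4.43 ± 4.63 CPM in HI (log2 fold change 1.50 ± 0.40), and 1 library decided this value: HI replicate 2 reached 13.7 CPM, and without it the log2 fold change was 0.73. limma-voom did not call it. In HRT soleus the groups were apart, at 0.80 to 1.35 CPM in CTRL and 1.67 to 3.09 CPM in HI, without a call. Slc35d1, which brings nucleotide sugars into the endoplasmic reticulum for glycan synthesis, was 28.0 ± 4.61 CPM in HRT soleus CTRL and 12.7 ± 3.64 CPM in HI, without overlap (log2 fold change -1.12 ± 0.19). LRT soleus had 22.8 ± 4.59 and 13.2 ± 4.87 CPM. The plantaris means of Slc35d1 were also lower in HI, at 6.10 ± 1.62 against 9.28 ± 1.28 CPM in LRT and 6.45 ± 1.15 against 8.59 ± 0.90 CPM in HRT.

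Slc16a3 is the lactate exporter of fast fibres and Slc22a4 a carrier of organic cations. For Slc16a3 in LRT plantaris the lowest, median and highest values were 179, 255 and 312 CPM in CTRL and 9.51, 65.3 and 171 CPM in HI. In HRT plantaris they were 207, 238 and 266 CPM and 33.4, 91.6 and 260.0 CPM. The LRT groups were apart by less than 10 CPM, with HI replicates 1 and 3 at 10.9 and 9.51 CPM and replicates 5 and 6 near the lowest CTRL value, and HRT HI replicate 3 was inside the CTRL range. The log2 fold change of -1.66 ± 0.55 in LRT was called, and the call was lost without HI replicate 1 or 3 (-1.41 without replicate 3). Fast fibre markers moved in the same comparison: 4 of 6 (Mylpf, Casq1, Myoz1 and Eno3) were called lower in LRT plantaris HI and 0 of 6 in HRT plantaris HI. Slow fibre markers did too, with 3 of 5 called lower in LRT plantaris HI, at a median log2 fold change of -1.12 over the 5 against -1.13 over the 6 fast fibre markers. The fibre markers were also taken from the DEG lists, so their calls are a description and support nothing. Of the other genes with a symbol, 55.8% were called in LRT plantaris and 19.9% in HRT plantaris. The response differed between lines at an adjusted p under 0.05 for 0 of 6 fast fibre markers in plantaris (edgeR). The part of fibre markers in the Slc16a3 result was not tested. Slc22a4 (OCTN1), a carrier of ergothioneine and organic cations, was 1.84 ± 0.71 CPM in LRT plantaris CTRL and 7.32 ± 3.77 CPM in HI, without overlap (log2 fold change 1.99 ± 0.43). In HRT plantaris every HI library was also above CTRL, at 2.59 to 11.5 against 1.22 to 2.50 CPM. The log2 fold change of 1.24 ± 0.44 was not called, but was with DESeq2, with scaling by library totals and with the replicate block. HI replicate 4, at 11.5 CPM, stood far above the other 5 HI libraries, and without it the log2 fold change was 0.67.

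The 4 mitochondrial carriers gave 2 calls. Slc25a28 (mitoferrin-2) brings iron into mitochondria for heme and iron-sulfur clusters. It was 20.7 ± 2.25 CPM in LRT soleus CTRL and 43.5 ± 14.3 CPM in HI (log2 fold change 1.08 ± 0.17), a call lost without HI replicate 4. HRT soleus had 15.9 ± 1.00 and 30.9 ± 9.34 CPM with no overlap, just outside the fold threshold and called with library totals and without the 3 libraries that stood apart. Slc25a45, a member of the mitochondrial carrier family, was 1.64 ± 0.28 CPM in LRT plantaris CTRL and 3.72 ± 2.35 CPM in HI, without overlap (log2 fold change 1.18 ± 0.25), and the call was lost without HI replicate 1. Slc25a25, which exchanges ATP-magnesium for phosphate across the inner mitochondrial membrane, was 248 ± 40.8 CPM in LRT plantaris CTRL and 122 ± 33.3 CPM in HI without overlap, against 199 ± 70.1 and 156 ± 66.4 CPM in HRT. Slc25a27 (UCP4) stayed between 0.89 to 2.66 CPM in all 8 group means and was not called.

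Whether a response to the cast differed between lines was read from DELTA, the LRT log2 fold change minus that of HRT. No member passed an adjusted p under 0.05 in either muscle, where 0% of all tested genes passed in plantaris and 0.0295% in soleus. At an unadjusted p under 0.05 there were 4 of 24 members in plantaris and 3 of 24 in soleus with edgeR, against 6.25% and 9.67% of all tested genes and 17.2% and 12.1% of the other genes with a symbol. DELTA is formed from the contrasts that chose the genes, so these shares are a description and support nothing. DESeq2 and limma-voom also called 0 members in both. The 12 calls of LRT plantaris against 3 of HRT plantaris are therefore not shown to be a difference between lines for any single gene.

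The contrasts between uncast muscles were not used to choose the genes, although they share CTRL libraries with those that were. Plantaris and soleus CTRL differed for 14 of the 24 genes at an adjusted p under 0.05, 9 higher in plantaris and 5 higher in soleus. Over all tested genes 23.9% were higher in plantaris and 25.3% higher in soleus, so a call between muscles was common among genes at large, and 653 of the 1125 other genes with a symbol were called. The median log2 difference of plantaris minus soleus was 0.18 over the 24 genes and -0.02 over all tested genes.

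Slc16a3 was furthest towards plantaris, with a log2 difference of 3.99 ± 0.43 (adjusted p = 1.2e-10, edgeR). In soleus its lowest, median and highest CTRL values were 7.31, 30.6 and 47.1 CPM in LRT and 1.70, 5.03 and 21.8 CPM in HRT, all under the lowest plantaris CTRL library of 179 CPM. Fitted within each line the log2 difference was 4.90 in HRT and 3.07 in LRT, and the difference between these was not tested. Slc25a25 was 186 to 311 CPM in LRT and 124 to 316 CPM in HRT plantaris CTRL against 26.4 to 69.6 and 20.3 to 51.4 CPM in soleus, a log2 difference of 2.47 ± 0.20 (adjusted p = 6.6e-14, edgeR). The lowest plantaris CTRL library was above the highest soleus one. Slc4a3 was furthest towards soleus, with lowest, median and highest CTRL values of 41.7, 75.2 and 94.8 CPM in LRT soleus and 81.7, 96.5 and 207 CPM in HRT soleus. In plantaris CTRL they were 3.85, 5.08 and 6.32 CPM and 5.19, 6.59 and 7.34 CPM. The muscles were apart in both lines, and the log2 difference was -4.06 ± 0.17 (adjusted p = 3.3e-23, edgeR).

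Amino acid, sugar and ion carriers were found on both sides. With log2 differences of plantaris minus soleus and their standard errors, higher in plantaris were the leucine carrier Slc43a1 at 1.93 ± 0.16, the glucose-6-phosphate translocase Slc37a4 at 1.77 ± 0.17, the fructose carrier Slc2a5 at 1.63 ± 0.29, the arginine carrier Slc7a2 at 1.23 ± 0.20 and the aromatic amino acid carrier Slc16a10 at 1.10 ± 0.17, with adjusted p from 1e-13 to 6.9e-06. Smaller differences were those of the iron carrier Slc25a28 at 0.81 ± 0.12 (adjusted p = 4.8e-07) and the copper carrier Slc31a2 at 0.39 ± 0.12 (adjusted p = 0.007). The Slc31a2 call was lost with scaling by library totals, at 0.25. Higher in soleus were the nucleotide sugar carrier Slc35d1 at -1.52 ± 0.14, the arginine carrier Slc7a1 at -1.52 ± 0.21, the organic cation carrier Slc22a4 at -1.29 ± 0.32 and the cotransporter Slc12a4 at -1.24 ± 0.15, with adjusted p from 8.6e-13 to 0.00077. The pair of arginine carriers thus stood on opposite sides, Slc7a2 in plantaris and Slc7a1 in soleus. Slc2a4 was not called, at 0.19 ± 0.17, with 570.2 ± 54.6 CPM in plantaris and 536 ± 40.9 CPM in soleus of LRT CTRL. In HRT CTRL it was 516 ± 78.3 CPM in plantaris and 414 ± 48.9 CPM in soleus. Slc9a2, Slc41a3 and Slc6a9, the genes called most often under the cast, were not called between muscles either, with adjusted p of 0.8, 0.33 and 1. With same-numbered plantaris and soleus libraries of a line as a block, a pairing that the labels do not state, 17 genes were called between muscles, the 14 above and Slc41a3, Slc43a2 and Slc4a1. Under that block 8998 of all 16960 tested genes were called, against 8335 without it.

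**Figure D4:**
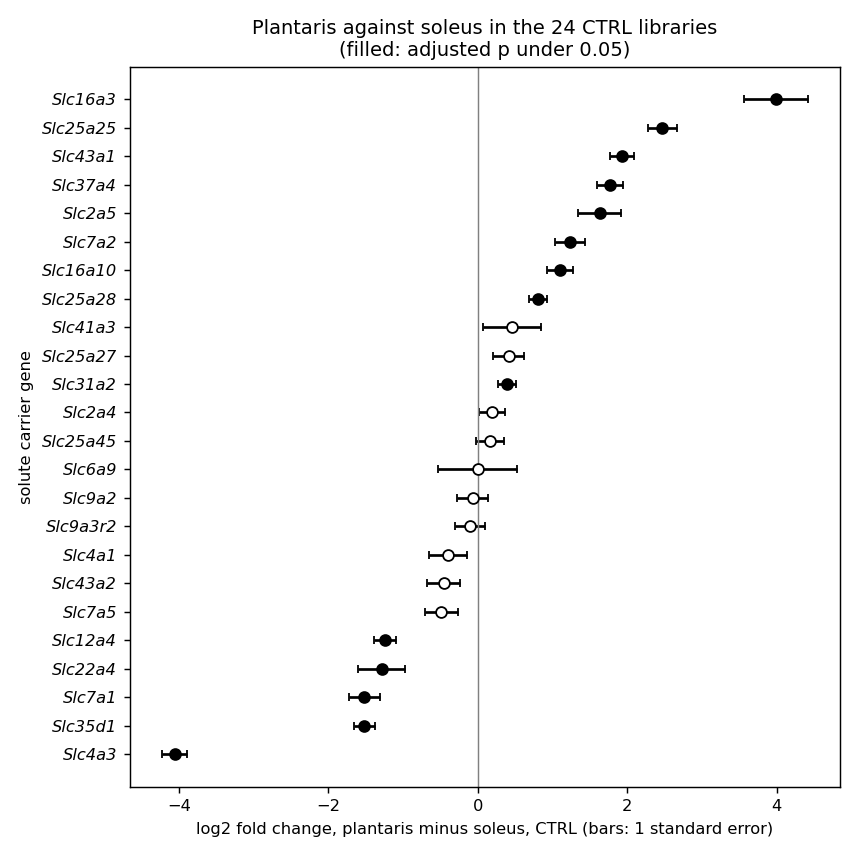
Log2 fold change of plantaris minus soleus in the 24 CTRL libraries for each of the 24 genes, with bars of 1 standard error and filled points where the adjusted p was under 0.05. Slc16a3 lies at 3.99 and Slc4a3 at -4.06, while 10 genes near 0 are open.

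**Figure D5:**
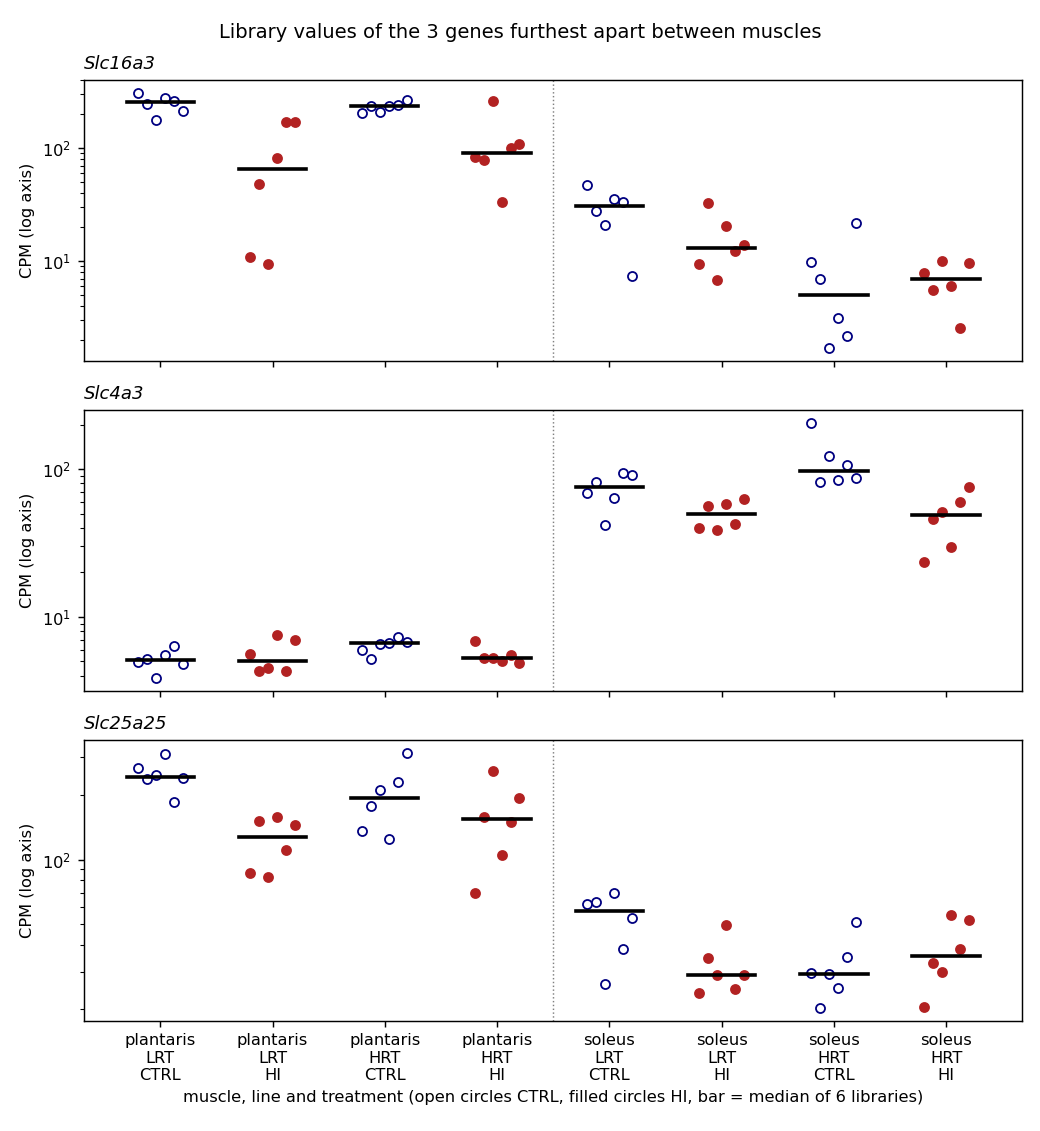
Library values of Slc16a3, Slc4a3 and Slc25a25 in CPM on log axes for the 8 groups, drawn with open circles for CTRL, filled circles for HI and bars for the median of 6 libraries. Slc4a3 lies between 3.85 and 7.51 CPM in all plantaris libraries and between 23.45 and 206.99 CPM in soleus.

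The upstream windows of these 3 genes are given for comparison with those above, in the same form. Slc16a3 lies at chr10:106712078-106712327, plus strand, Slc4a3 at chr9:84485405-84485654, plus strand and Slc25a25 at chr3:36116582-36116831, minus strand.
Slc16a3: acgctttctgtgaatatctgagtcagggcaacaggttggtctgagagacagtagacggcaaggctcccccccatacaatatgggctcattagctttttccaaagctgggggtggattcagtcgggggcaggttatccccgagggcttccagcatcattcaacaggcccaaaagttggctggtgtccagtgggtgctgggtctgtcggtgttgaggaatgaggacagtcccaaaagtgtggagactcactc
Slc4a3: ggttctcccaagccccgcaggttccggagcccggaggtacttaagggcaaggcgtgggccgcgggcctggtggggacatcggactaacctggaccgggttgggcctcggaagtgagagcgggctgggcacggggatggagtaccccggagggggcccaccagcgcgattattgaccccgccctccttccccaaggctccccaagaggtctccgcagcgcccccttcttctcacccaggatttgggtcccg
Slc25a25: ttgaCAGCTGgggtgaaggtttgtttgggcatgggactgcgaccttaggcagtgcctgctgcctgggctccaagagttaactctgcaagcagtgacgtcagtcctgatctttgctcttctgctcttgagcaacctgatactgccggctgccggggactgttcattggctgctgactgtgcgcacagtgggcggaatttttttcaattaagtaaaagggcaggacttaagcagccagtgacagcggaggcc
The Slc25a25 window was the only one of the 6 printed here with a cyclic AMP response element and also held 1 E-box, whereas the windows of Slc16a3 and Slc4a3 held no E-box.

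LRT and HRT CTRL muscle did not differ for any of the 24 genes at an adjusted p under 0.05 with edgeR, against 0.525% of all tested genes in plantaris and 1.45% in soleus. In plantaris 0 of 24 genes had an unadjusted p under 0.05 (10.7% of all tested genes), the lowest adjusted p was 0.54, and DESeq2 and limma-voom also called 0. In soleus 7 of 24 (29.2%) had an unadjusted p under 0.05, against 15.0% of all tested genes and 15.4% of the other genes with a symbol. The closest was Slc16a3, at 28.7 ± 13.6 CPM in LRT and 7.60 ± 7.64 CPM in HRT, where the groups overlapped and the log2 difference of LRT minus HRT was 1.92 ± 0.56 (adjusted p = 0.063). DESeq2 gave 1.93 (adjusted p = 0.027) and limma-voom 2.34 (adjusted p = 0.035), and the adjusted p lay between 0.0081 and 0.15 over 58 alternatives, of which 6 passed. In the same contrast 2 of 6 fast fibre markers, Mylpf and Myoz1, were called higher in LRT soleus by 1.45 and 1.44 on the log2 scale, and their part in the Slc16a3 difference was not tested. Slc7a1 in soleus CTRL was 3.76 ± 1.88 CPM in LRT and 6.80 ± 4.26 CPM in HRT, a log2 difference of -0.82 ± 0.28 (adjusted p = 0.13). It rested on single libraries: without HRT CTRL replicate 1, at 15.3 CPM, the value was -0.44 (adjusted p = 0.55), and of the 58 alternatives it passed only without LRT CTRL replicate 3, at 7.46 CPM (-1.15, adjusted p = 0.023). Slc6a9 and Slc4a3, also among the 7 genes, depended on the same HRT CTRL replicate 1. Without it their log2 differences went from -1.2 to -0.8 and from -0.59 to -0.38.

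Genes with related roles, taken from lists that were also drawn up with results of these data known and limited to named DEGs, are described by counts in the 4 HI comparisons. Since such genes were chosen on these contrasts, the counts are read beside the 55.8%, 19.9%, 23.6% and 28.2% of all other genes with a symbol that were called in LRT plantaris, HRT plantaris, LRT soleus and HRT soleus, and nothing particular to a list is read from them. Of 4 iron and heme genes, 2 were called higher and 2 lower in LRT plantaris, 1 and 2 in HRT plantaris, 0 and 1 in LRT soleus, and 0 in HRT soleus. The transferrin receptor Tfrc, which brings iron into cells, was lower by log2 fold changes of -2.38 in LRT plantaris, -1.69 in HRT plantaris and -1.26 in LRT soleus. The heme-degrading enzyme Hmox1 was higher by 2.70 and 1.95 in LRT and HRT plantaris. Of 5 carriers with names outside the Slc series, 3 were called in LRT plantaris, among them the uncoupling protein Ucp3 at 1.47 and the pyruvate carrier subunit Mpc1 at -1.05, and 1 was called in each HRT comparison. Of 24 pumps and channels, 5 were called higher and 6 lower in LRT plantaris, 1 and 2 in HRT plantaris, 3 and 1 in LRT soleus, and 4 and 3 in HRT soleus.

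Of 6 glucose uptake partners, 1 was called higher and 1 lower in LRT plantaris, 0 and 1 in HRT plantaris, 0 and 2 in LRT soleus, and 1 and 2 in HRT soleus. The insulin receptor substrate Irs1 was lower by -1.17 in HRT plantaris, -1.14 in LRT soleus and -1.67 in HRT soleus. Its relative Irs2 was lower in soleus by -1.64 in LRT and -1.88 in HRT, and Aspscr1 (TUG), which retains GLUT4 inside the cell, was higher in LRT plantaris by 1.15. The member called higher in HRT soleus was Pik3r1, a regulatory subunit of phosphoinositide 3-kinase, at 1.25, and the one called lower in LRT plantaris was Ppargc1a, a coactivator of mitochondrial genes, at -1.01. Of 6 amino acid stress genes, 2 were called higher and 2 lower in LRT plantaris, 1 and 0 in HRT plantaris, 2 and 0 in LRT soleus, and 2 and 1 in HRT soleus. The mitochondrial folate enzyme Mthfd1l was higher in all 4, by 1.06 to 1.70, and the glutathione-degrading Chac1 was higher in all but HRT plantaris, by 1.27 to 2.51. Those called lower were the serine synthesis enzyme Psat1 at -1.13 and the secreted glycoprotein Stc2 at -1.27 in LRT plantaris, and the stress response transcription factor Atf5 at -1.43 in HRT soleus. The cell type markers that follow were also limited to named DEGs. Their counts stand beside the same shares of other genes with a symbol, and nothing is read from them. These shares were 55.8%, 19.9%, 23.6% and 28.2% in LRT plantaris, HRT plantaris, LRT soleus and HRT soleus. Matrix genes were called lower for 4 of 6 in LRT plantaris, 2 in HRT plantaris, 1 in LRT soleus and 3 in HRT soleus. Immune cell genes were called higher in 5 of 6 in HRT soleus, 1 in LRT soleus and 1 in HRT plantaris, where 1 was lower. The summed immune markers were 6.9 to 13.6 CPM in HRT soleus CTRL and 16.0 to 38.1 CPM in HI. Of 5 adipocyte markers (Cidea, Thrsp, Fasn, Scd and Dgat2), 2 were called higher and 2 lower in LRT plantaris, 2 higher in HRT plantaris and 1 higher in each soleus comparison. Their sum ran from 49.5 to 74.4 CPM in CTRL and 87.1 to 168.9 CPM in HI of HRT plantaris, and from 33.1 to 45.1 CPM and 65.8 to 120.6 CPM in HRT soleus, without overlap in either, whereas the LRT ranges overlapped. Of 5 slow fibre markers in soleus, 1 was called lower in LRT, and 1 lower and 1 higher in HRT. Their sum had medians of 3051.8 CPM in CTRL and 958.0 CPM in HI of LRT soleus and 2804.9 and 1503.8 CPM in HRT soleus, with overlapping ranges. Of 6 fast fibre markers in soleus, Pvalb was called higher in LRT, by 3.23, and none was called in HRT. Their sum had medians of 3818.5 CPM in CTRL and 2669.3 CPM in HI of LRT soleus and 1996.1 and 2252.3 CPM in HRT soleus, again with overlapping ranges. The part of these markers in the results of the 24 genes was not tested.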

How the data were processed

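RNA from plantaris and soleus of LRT and HRT rats was sequenced in 48 libraries. The authors deposited gene-level estimated counts. According to their methods, Salmon 0.9.1 quantified transcripts of the Ensembl Rnor_6.0 annotation, coding and non-coding, and tximport summed them per gene. The methods mention length normalization towards TPM, and the tximport option is not given in the sources used here, so the deposited counts may already be scaled for transcript length. The labels and the methods name different library kits, so use of strand is unsettled. The counts were rounded here, since 66.0% of values were not whole, and libraries held 26.8 to 36.4 M of them.

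Groups came from the labels. Symbols came from the study's DEG lists, whose fold changes and p-values were not used; the tables pair 1149 identifiers (3.6%) with symbols. Genes were kept by filterByExpr and libraries scaled by TMM. The 8 groups and RIN were fitted over all 48 libraries with edgeR 4.0.16 (quasi-likelihood F test, R 4.3.3), with Benjamini-Hochberg adjustment over 16960 genes. A gene counted as called between HI and CTRL with a log2 fold change beyond 1 in either direction and adjusted p under 0.05, and in other contrasts at the adjusted p alone. Whether each rat gave 1 library per muscle was taken from the study's methods. The procedure was tested on simulated counts. The members and lists were chosen with earlier results of these data known, and the cell type markers were limited to the same DEG lists. All members are named with their levels, fold changes only where called, or just beside the fold threshold, or as alternatives, and library values for genes called in at least 3 HI comparisons or over 2 log2 units between muscles; single libraries of other genes were named after their values were seen. Alternatives used limma 3.58.1, DESeq2 1.42.0, other scalings, filters, covariates, blocks and the removal of each library; the removal of 3 libraries that stood apart was added after the data were seen. Summaries and figures used Python 3.11.15, pandas 2.3.3 and matplotlib 3.10.9. Upstream windows and start sites were taken from RefSeq tables of GRCr8. Protein sequences and a genome were not used here.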

Additional observations from a re-analysis of the deposited data

Results flagged for a closer look

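In 192 sets of 6 values (24 genes in 8 groups, log2 of CPM plus 0.5), 16 held a library whose gap to its nearest neighbour exceeded Dixon's 95% critical value for that number as a share of the range; chance alone gives about 5% of sets. The libraries furthest out for red cell content, HRT HI replicate 5 of plantaris and of soleus, were set apart for Slc4a1, at 15.3 and 55.1 CPM. Plantaris HRT HI replicate 4 was set apart for 3 genes, Slc37a4 at 37.7 CPM against 88.6 CPM or more in the others, Slc22a4 at 11.5 CPM and Slc31a2 at 20.1 CPM, and replicates 1 and 2 of that group for Slc4a3 at 6.85 CPM and Slc7a1 at 0.99 CPM. Soleus HRT CTRL replicate 1 was set apart for Slc7a1 at 15.3 CPM and Slc6a9 at 2.90 CPM. Plantaris LRT CTRL replicate 3 was set apart for Slc7a5 at 1.05 CPM and Slc43a1 at 40.8 CPM, and plantaris HRT CTRL replicates 4 and 3 for Slc6a9 at 1.32 CPM and Slc41a3 at 46.0 CPM. In LRT soleus the libraries were CTRL replicate 2 for Slc2a4 at 459 CPM, CTRL replicate 3 for Slc22a4 at 18.3 CPM and HI replicate 2 for Slc2a5 at 13.7 CPM. No gene had responses to the cast that went in opposite directions in all HI libraries of the lines, and none passed the test of DELTA.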

How the results depend on the processing

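With each library left out in turn, the number of the 24 genes called was 14 to 15 between CTRL muscles, 0 to 0 and 0 to 1 between lines in plantaris and soleus, 7 to 15 and 1 to 5 for HI in LRT and HRT plantaris, 2 to 7 and 6 to 10 for HI in LRT and HRT soleus, and 0 to 0 in both DELTA contrasts. DESeq2 and limma-voom each called 1 gene between lines in soleus, Slc16a3, where edgeR called 0. Over all tested genes DESeq2 called 434, limma-voom 267 and edgeR 246. With an adjusted p alone, 7 genes were called in HRT plantaris and 9 in LRT soleus. Nothing is read from these counts, since these contrasts chose the genes. Of all 16960 tested genes, 1860 and 2349 passed the adjusted p alone in these comparisons with size factors of DESeq2 in edgeR. With the replicate number as a block, the counts of the 24 genes were 5 in HRT plantaris, 14 in LRT plantaris and 6 in LRT soleus. Over all tested genes they were 362, 903 and 437, against 322, 879 and 409 without the block. With same-numbered libraries of both muscles as a block, 17 were called between muscles. Same-numbered libraries of the 2 muscles correlated at -0.05 to 0.392 over 24 pairs (median 0.245), with 22 of 24 over 0.1 and 22 of 24 libraries correlating best with their own number, so the number is a hint from the data and was not taken as a pairing. Fitting each muscle alone gave 6 calls in HRT soleus. Of all 16439 genes tested in that fit 293 were called, against 497 of 16960 in the fit of both muscles. Without 3 libraries that stood apart (soleus HRT CTRL replicate 1 and HRT HI replicate 5 of both muscles; chosen after the data were seen) there were 16, 4 and 7 calls between muscles, in HRT plantaris and in HRT soleus. Over all tested genes there were 8345, 395 and 512, against 8335, 322 and 497 with all libraries. Scaling by library totals moved the median log2 of all genes by 0.24 in LRT plantaris HI, 0.16 in HRT plantaris HI and 0.14 in LRT soleus HI, by -0.14 between muscles and by -0.10 and -0.12 between lines in plantaris and soleus, and the muscle difference of Slc31a2 was then 0.25 (adjusted p = 0.11, edgeR). A minimum of 10 counts in every library left Slc6a9 out of the test. Every value called between muscles or between HI and CTRL kept its sign in all alternatives run. Low levels limit the precision for Slc7a5, Slc6a9, Slc25a27 and Slc25a45, whose CTRL means lay between 0.55 and 1.64 CPM. The same limit holds in plantaris for Slc22a4 and Slc7a1, with CTRL means of 1.84 and 1.78 CPM in each line. In soleus it holds for Slc2a5, with CTRL means of 1.58 CPM in LRT and 1.11 CPM in HRT.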
